A study of Homo sapiens with 4 samples.

Results

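Cadherins are transmembrane adhesion proteins whose repeated extracellular domains bind calcium and join neighbouring cells. The 9 cadherin superfamily genes described here, CDH1, CDH2, CDH12, PCDH19, FAT1, FAT4, DSC2, DSC3 and DSG2, were read by 9 of 33297 probe sets, 1 probe set each, among 18417 named genes. They were chosen by symbol, and several of them for their difference between LTAD and LNCaP, so that difference is given as a description. Among them are classical cadherins (CDH1, CDH2), a type II cadherin (CDH12), desmosomal cadherins (DSC2, DSC3, DSG2), a protocadherin (PCDH19) and giant FAT cadherins (FAT1, FAT4). Classical cadherins hold adherens junctions and bind catenins inside the cell, desmosomal cadherins hold desmosomes, which anchor keratin filaments, and loss of E-cadherin with gain of N-cadherin is the textbook mark of epithelial-mesenchymal transition in carcinomas such as prostate cancer.

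Total RNA was read on 4 Affymetrix whole-transcript arrays, 1 for each of 4 groups. These were LTAD cells transfected with siPSF, an siRNA against PSF (the product of SFPQ), LTAD cells transfected with siControl, LTAD cells with no transfection, and LNCaP cells. LNCaP, a human prostate cancer line, responds to androgen. LTAD was derived from it by prolonged androgen deprivation and is a single derived line. LTAD cells grew without phenol red in 10% charcoal-stripped serum, while LNCaP cells spent 24 h in phenol red-free medium with 2.5% stripped serum after growth in complete serum, so line and culture cannot be told apart. With no replicates, differences are between single arrays, no test, SD or interval can be given, and precision is limited by how few arrays there are.

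Values are log2 levels after quantile normalization of the 4 arrays unless the deposited scale is named, and differences are log2, the first-named array minus the second. A level under 7.24, the median of all gene values, is not shown to be above background, since the sources used here held no detection call. Fewer cells carrying a transcript and less of it per cell cannot be told apart in such bulk RNA. Levels of different probe sets are not compared with each other. On the deposited scale the array medians paired the transfected arrays, at 6.04 for siPSF and 5.98 for siControl, apart from untransfected LTAD at 7.20 and LNCaP at 6.91. Whether these pairs were processed or normalized separately is not given in the sources used here, so in every difference between a transfected and an untransfected array transfection and such a batch cannot be told apart.

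SFPQ, the siRNA target, read 9.87 in siPSF LTAD, 11.23 in siControl LTAD, 10.82 in untransfected LTAD and 10.83 in LNCaP. Of the 6 measured luminal prostate markers 5, 6, 6 and 6 were above 7.24 in siPSF LTAD, siControl LTAD, untransfected LTAD and LNCaP. The exception was KLK3, the androgen-regulated gene of prostate-specific antigen, which read 7.11, 7.47, 11.06 and 12.89 in that order and so also set siControl apart from untransfected LTAD, by -3.59. None of 7 endothelial and immune markers reached 7.24 in any array. The untransfected and siControl LTAD arrays stood far apart, with 9.86% of 11049 kept genes at least 2-fold apart, against 0.724% between siPSF and siControl LTAD. A gene was kept if its deposited value reached 7.24 in at least 1 array. Of the 9 genes 8 were kept, and CDH12, PCDH19 and FAT4 passed only through the untransfected LTAD array and DSC3 only through the LNCaP array.

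**Figure D1:**
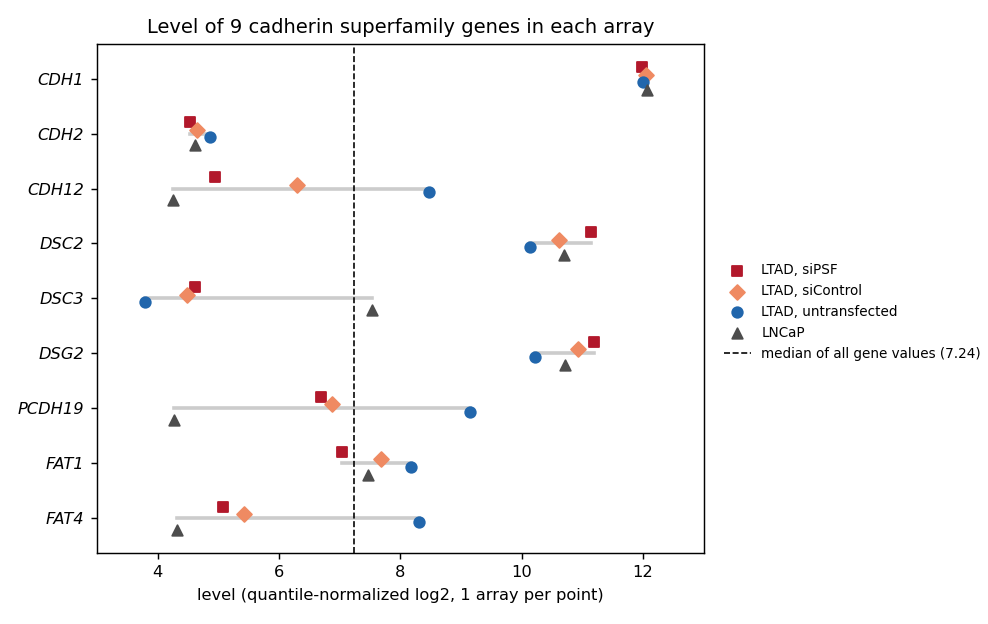
Quantile-normalized log2 level (x axis) of each of the 9 genes (rows) in the 4 arrays, 1 point per array, with the dashed line at 7.24. The 4 CDH1 points lie between 11.99 and 12.06, while PCDH19 spans 4.28 to 9.14 and DSC3 3.79 to 7.53.

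CDH1 encodes E-cadherin, the main epithelial cadherin of adherens junctions. Its level was 11.99 in siPSF LTAD, 12.05 in siControl LTAD, 12.00 in untransfected LTAD and 12.06 in LNCaP, a spread of 0.07 on the log2 scale. On this scale each of the 4 comparisons differed by 0.06 or less. Its siControl differences depended on the scale, at -0.62 (deposited) and 0.59 (each array centred on its median) against untransfected LTAD, and -0.59 and 0.34 against LNCaP, all under 2-fold. CDH2 encodes N-cadherin, which mesenchymal and neural cells use. Its level was 4.53, 4.65, 4.87 and 4.62 in siPSF LTAD, siControl LTAD, untransfected LTAD and LNCaP, under 7.24 in all 4, and it was the member that the filter left out. No array of LTAD thus gave an N-cadherin reading above that level, and no gain of N-cadherin over LNCaP was detectable on these arrays.

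Catenins link these cadherins to actin. CTNNB1, beta-catenin, was at 12.02 in siPSF LTAD, 11.96 in siControl LTAD, 12.32 in untransfected LTAD and 11.89 in LNCaP. CTNNA1, alpha-catenin, ran from 10.60 to 10.70 over the 4 arrays. The 2-fold count over the catenin and adaptor list, 11 kept of 15 measured genes, was 1 higher and 0 lower for LTAD against LNCaP, where 2.27% of all kept genes were higher and 3.42% lower. NECTIN3, an immunoglobulin-like partner of cadherin junctions, was the gene higher there, at 7.90 in LTAD against 5.78 in LNCaP. It passed the filter only through the untransfected LTAD array, so nothing is read from that count. NECTIN4 was lower in siControl LTAD, at 6.58, than in LTAD with no transfection (7.86) and LNCaP (7.80).

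Among transcription factors known to repress CDH1, ZEB1 read 4.64, 4.44, 4.49 and 3.87 and ZEB2 4.78, 4.73, 4.36 and 4.71 in siPSF LTAD, siControl LTAD, untransfected LTAD and LNCaP, under 7.24 throughout. SNAI2, the repressor Slug, read 7.67, 7.73, 7.07 and 7.43 in the same arrays. In the list of such factors and epithelial regulators, 1 of 10 kept genes was at least 2-fold higher in LTAD than in LNCaP and 0 lower. Over all kept genes these shares were 2.27% and 3.42%. That gene was TWIST1, a basic helix-loop-helix factor of epithelial-mesenchymal transition, at 8.41 in LTAD against 7.08 in LNCaP (1.33). Its LNCaP level is under 7.24. In siControl LTAD TWIST1 stood at 7.73, under 2-fold from both.

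The 3 desmosomal cadherins parted. DSC2 and DSG2, the desmocollin and desmoglein of simple epithelia, were above 7.24 in every array. DSC3, a desmocollin of basal and stratified epithelia, was above it in LNCaP alone. DSC2 read 11.14 in siPSF LTAD, 10.61 in siControl LTAD, 10.15 in untransfected LTAD and 10.70 in LNCaP, and DSG2 read 11.19, 10.93, 10.23 and 10.71 in that order. Both were thus highest with siPSF and lowest in untransfected LTAD, within a range of 0.999 for DSC2 and 0.96 for DSG2. That order holds for the normalized scale. On the deposited scale siControl LTAD was the lowest array for both, at 10.26 for DSC2 and 10.58 for DSG2, and LNCaP the highest, with DSC2 at 10.99. DSC3 read 4.62, 4.48 and 3.79 in the 3 LTAD arrays, in the same order, against 7.53 in LNCaP. Its readings in all 3 LTAD arrays lay at least 2-fold under LNCaP on both scales, with differences of -3.73 for untransfected LTAD and -3.05 for siControl LTAD. DSC3 was picked with this difference known, and its LTAD levels are under 7.24, so the size is a reading and no fold is given.

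DSC3 and DSC2 are neighbours on chromosome 18, in a row of desmosomal cadherin genes that starts beside CDH2. In gene order of assembly GRCh38.p14 the row is DSC3, DSC2, DSC1, DSG1, DSG4, DSG3 and DSG2. DSC1, DSG1, DSG4 and DSG3, which stratified epithelia and hair follicles use, read between 3.73 and 5.11 in all 4 arrays. The other neighbours of DSC3 therefore showed no reading above 7.24, apart from DSC2 and DSG2. To show the DNA before the start of each of the 2 desmocollin genes, the 250 bases upstream are given from RefSeq (GRCh38.p14, minus strand, 5′ to 3′ along the gene), at chr18:31042743-31042992 for DSC3 and chr18:31102422-31102671 for DSC2.
DSC3: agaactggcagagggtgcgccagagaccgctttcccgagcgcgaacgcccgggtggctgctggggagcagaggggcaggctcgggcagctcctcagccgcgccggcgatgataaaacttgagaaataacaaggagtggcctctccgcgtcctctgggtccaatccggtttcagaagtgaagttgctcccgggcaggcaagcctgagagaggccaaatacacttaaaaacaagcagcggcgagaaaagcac
DSC2: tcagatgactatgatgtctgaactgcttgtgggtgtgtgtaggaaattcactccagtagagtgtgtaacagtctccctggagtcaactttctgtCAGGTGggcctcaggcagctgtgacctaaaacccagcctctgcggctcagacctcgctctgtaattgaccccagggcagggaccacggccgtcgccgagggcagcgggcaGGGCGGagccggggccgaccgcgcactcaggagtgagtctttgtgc
Capitals mark the motifs searched on both strands. These were the E-box CAGGTG, the GC-box GGGCGG and the steroid receptor half-site AGAACA, each also in its reverse complement, and no matches overlapped here. Of 35116 such upstream windows, 17.5% held the E-box, 42.6% the GC-box and 12.4% the half-site. The DSC2 window held 1 E-box, 156 bases before the start, and 1 GC-box, and the DSC3 window had no match. GC content was 60.4% for DSC3 and 59.6% for DSC2, where the median window had 58%. These matches describe letters in the windows, and no binding was measured.

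**Figure D2:**
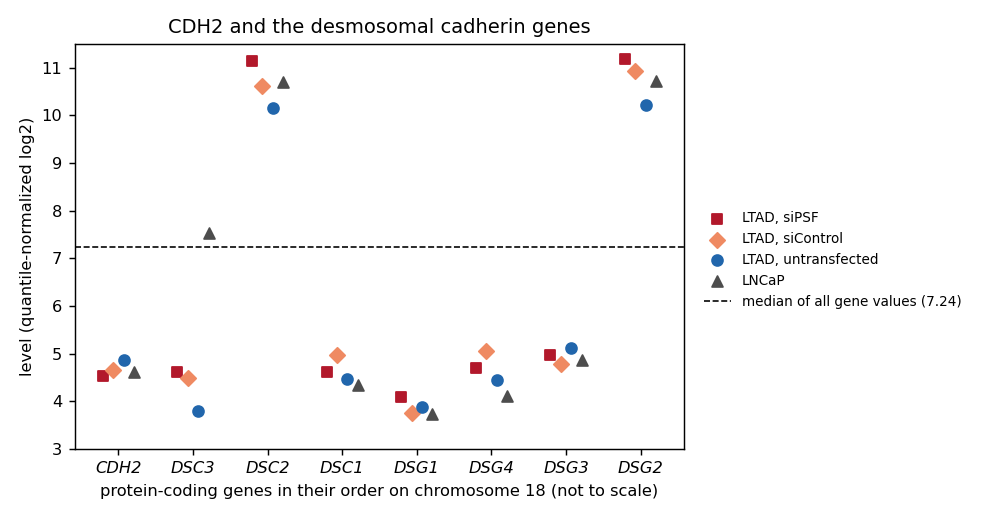
Quantile-normalized log2 level (y axis) of CDH2 and the 7 desmosomal cadherin genes in their order along chromosome 18 (x axis, not to scale), 1 point per array, dashed line at 7.24. The LNCaP point of DSC3 at 7.53 stands apart from its 3 LTAD points, while DSC2 and DSG2 lie above the line in every array.

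Inside the cell, desmosomal cadherins hold plakoglobin, plakophilins and desmoplakin. JUP, plakoglobin, read 11.30 in siPSF LTAD, 10.97 in siControl LTAD, 11.32 in untransfected LTAD and 11.11 in LNCaP. DSP, desmoplakin, read 10.32, 9.88, 10.37 and 10.26, and PKP2 ran from 8.54 to 8.76. The plaque list had 7 kept genes of 8 measured, and none was 2-fold apart in any of the 4 comparisons. Over all kept genes 5.69% were for LTAD against LNCaP, 5.23% for siControl LTAD against LNCaP, 9.86% for siControl against untransfected LTAD and 0.724% for siPSF against siControl. With 7 genes, nothing is read from that count. As deposited, 3 were at least 2-fold lower for siControl LTAD against LNCaP and 5 against untransfected LTAD, beside 24.6% and 43.4%. For LTAD against LNCaP the list median was 0.14, beside 0.02 over all kept genes.

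Of the 9 genes, PCDH19, CDH12 and FAT4 had the largest positive differences between untransfected LTAD and LNCaP. PCDH19 encodes protocadherin-19, which works together with N-cadherin in neurons. It read 6.70 in siPSF LTAD, 6.87 in siControl LTAD, 9.14 in untransfected LTAD and 4.28 in LNCaP. All 3 LTAD arrays were above LNCaP, but only untransfected LTAD was above 7.24. The difference from LNCaP was 4.86 for untransfected LTAD and 2.59 for siControl LTAD, with 1.72 for siControl LTAD on the deposited scale. CDH12, a type II cadherin known from brain, read 4.94, 6.29, 8.47 and 4.26 in siPSF LTAD, siControl LTAD, untransfected LTAD and LNCaP. Only untransfected LTAD was above 7.24 here too, so the order of the siPSF, siControl and LNCaP readings is not read. FAT4, a giant cadherin that binds Dachsous and is linked to planar polarity and Hippo signalling, read 5.08, 5.42, 8.31 and 4.33 in the same order. It was high in untransfected LTAD and under 7.24 in the other three arrays.

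CDH12 and PCDH19 are shown with their upstream DNA because they had the 2 largest positive differences between untransfected LTAD and LNCaP. Their high readings rest on 1 LTAD array, and shared regulation was not tested. The windows are 250 bases from RefSeq (GRCh38.p14, minus strand, 5′ to 3′ along the gene), at chrX:100410274-100410523 for PCDH19 and chr5:22853345-22853594 for CDH12, with the same 3 motifs in capitals.
PCDH19: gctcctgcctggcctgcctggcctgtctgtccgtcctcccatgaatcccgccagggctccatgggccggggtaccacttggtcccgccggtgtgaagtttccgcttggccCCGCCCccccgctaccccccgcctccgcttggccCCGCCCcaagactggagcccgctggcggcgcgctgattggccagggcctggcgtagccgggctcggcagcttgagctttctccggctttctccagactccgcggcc
CDH12: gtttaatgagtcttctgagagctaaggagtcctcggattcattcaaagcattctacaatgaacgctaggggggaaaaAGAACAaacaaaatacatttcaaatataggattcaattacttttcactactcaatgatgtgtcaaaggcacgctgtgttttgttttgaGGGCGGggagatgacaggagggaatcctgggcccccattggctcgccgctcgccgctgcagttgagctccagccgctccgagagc
The PCDH19 window held 2 GC-boxes and 72% G and C, and the CDH12 window 1 GC-box, 1 half-site and 48%. Neither held the E-box. RefSeq windows matched 7 of the 9 genes, and CDH1 and FAT4 are named only.

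Setting LTAD against LNCaP, 3 of the 9 genes were at least 2-fold higher (PCDH19, CDH12, FAT4) and 1 at least 2-fold lower (DSC3), beside 2.27% and 3.42% of kept genes. This contrast chose several of the genes, so nothing is read from the counts. For siControl LTAD against LNCaP, which shares the LNCaP array, the same counts were 3 and 1, beside 2.26% and 2.97%. There CDH12 differed by 2.03 (1.13 deposited), PCDH19 by 2.59 and FAT4 by 1.10, all with both arrays under 7.24. FAT4 lost the call on the deposited scale, at 0.14, whose median over the kept genes was -0.72.

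Between the 2 LTAD arrays without the PSF siRNA, FAT4 differed by -2.88, PCDH19 by -2.27 and CDH12 by -2.17 for siControl against untransfected LTAD. These were the 3 of 9 genes at least 2-fold lower, with 0 higher, beside 4.32% and 5.54% of kept genes. All 3 were selected for a high LTAD level, and that array is the one subtracted here. Untransfected LTAD exceeded the next highest array by at least 2-fold at 1.33% of kept genes, these 3 among them. DSC2, DSC3 and DSG2 differed by 0.47, 0.69 and 0.70, and turned to -0.35, -0.52 and -0.11 on the deposited scale, whose median over the kept genes was -0.92. The high readings of PCDH19, CDH12 and FAT4 thus rest on 1 array. LUM, the stromal matrix gene lumican, moved with them, at 2.97 in siPSF LTAD, 3.21 in siControl LTAD, 8.80 in untransfected LTAD and 3.78 in LNCaP. Of the 9 stromal markers 3, 2, 2 and 2 reached 7.24 in these arrays, and their summed level was 10.41, 10.24, 10.20 and 9.56 as log2. COL1A1, a collagen chain, was above 7.24 in every array, at 7.68 to 7.99, and VIM, vimentin, read 9.31, 9.03, 7.15 and 7.84 in the same order. DCN, decorin, and FAP, a fibroblast protease, read 4.38 or less in every array. The part of other cells in these readings was not tested.

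**Figure D3:**
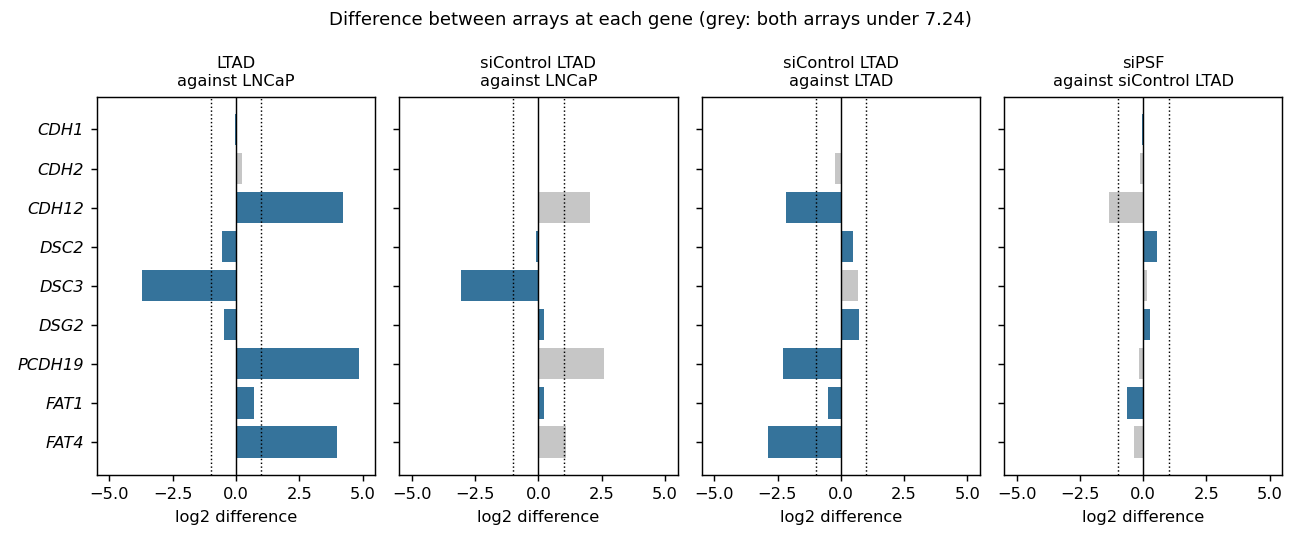
Log2 difference (x axis) of each of the 9 genes (rows) in the 4 comparisons (panels), with dotted lines at 2-fold and grey bars where both arrays read under 7.24. PCDH19, CDH12 and FAT4 exceed LNCaP by 4.86, 4.21 and 3.98 in untransfected LTAD, and the siControl array lies below untransfected LTAD at each.

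Knockdown of PSF was followed across the same genes by setting siPSF against siControl LTAD. CDH12 was the 1 of 9 genes at least 2-fold apart, lower with siPSF, beside 0.661% of kept genes lower and 0.0634% higher. It read 4.94 with siPSF against 6.29 with siControl (-1.35). Both levels are under 7.24, so neither is shown to be above background and nothing is read from that difference. Next in size was FAT1, a giant cadherin that binds actin regulators, at 7.04 in siPSF LTAD, 7.69 in siControl LTAD, 8.18 in untransfected LTAD and 7.47 in LNCaP. FAT1 differed by -0.65 with siPSF, under 2-fold, and its siPSF reading was the lowest of the 4 arrays. That siPSF level lies under the 7.24 line. On the deposited scale the siControl level is under it too, at 7.22. FAT4 and PCDH19 differed by -0.35 and -0.17, at levels under 7.24.

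DSC2 was higher with siPSF by 0.53, rank 121 from the highest of the kept genes, and DSG2 by 0.26, both in arrays well over 7.24 and both under 2-fold. Neither desmosomal difference, nor that of CDH1 at -0.06, reached the 2-fold line. Against untransfected LTAD in place of siControl, CDH12, FAT4, PCDH19 and FAT1 were at least 2-fold lower with siPSF, by differences of -3.53, -3.23, -2.44 and -1.14, and 0 of the 9 genes were higher, beside 5.24% and 4.62% of kept genes. The first 3 were selected for a high reading in the array subtracted here, so nothing is read from that count. DSC2 then differed by 0.999 and DSG2 by 0.96, just under the line on the normalized scale. As deposited, DSC2 read 10.80 with siPSF and 10.61 in untransfected LTAD, and DSG2 10.85 and 10.69. The size of these differences thus depends on the scale.

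CDH12 is the longest of the 9 genes, with a span of 1103 kb in GRCh38.p14, where the others span 43.6 to 244 kb. Of the 110 kept genes spanning at least 500 kb, 19.1% were at least 2-fold lower with siPSF than with siControl and 0% higher. Over all kept genes these shares were 0.661% and 0.0634%. In the same class 24.5% were at least 2-fold higher in LTAD than in LNCaP and 3.64% lower, beside 2.27% and 3.42%. For siControl LTAD against LNCaP 11.8% were higher and 8.18% lower, beside 2.26% and 2.97%. For siControl against untransfected LTAD 26.4% were lower and 4.55% higher, beside 4.32% and 5.54%. The part of gene span in the CDH12 reading was not tested. FAT4 and PCDH19 span 178 and 119 kb.

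Across the wider superfamily, 86 of 113 listed genes were measured and 36 kept, of which 28 are not among the 9. For LTAD against LNCaP 2 of the 28 were at least 2-fold higher and 2 lower, 7.14% each way beside 2.27% and 3.42% of all kept genes. The 2 higher, PCDH9 and PCDH20, passed the filter only through the untransfected LTAD array. CDH26 and PCDHB16, the 2 lower, passed only through LNCaP. Nothing is therefore read from these shares. Against the same LNCaP array siControl LTAD gave 2 and 2, beside 2.26% and 2.97%. Between siControl and untransfected LTAD the counts were 5 and 2, or 17.9% and 7.14%, beside 5.54% and 4.32%. PCDH9 and PCDH20 were the 2 lower here. Between siPSF and siControl LTAD they were 0 and 0, beside 0.0634% and 0.661%. Over the 28, the median difference of LTAD against LNCaP was -0.16, beside 0.02 over all kept genes.

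Among kept non-clustered protocadherins, PCDH9 and PCDH20 also read highest in untransfected LTAD. Both passed the filter only through that array, so nothing is read from this likeness. PCDH9, a neuronal protocadherin, read 4.51 in siPSF LTAD, 4.38 in siControl LTAD, 7.22 in untransfected LTAD and 4.44 in LNCaP. All these levels are under 7.24, and PCDH9 was kept on its deposited LTAD value of 7.83. PCDH20 read 5.06, 5.12, 7.81 and 6.17 in that order. At neither was the siControl array above LNCaP, unlike at PCDH19. The siControl and LNCaP levels of all 3 genes are under 7.24, so their order is not read. PCDH1, the fourth kept gene of that list, stayed between 7.58 and 7.93.

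Clustered protocadherins, whose isoforms give neurons a surface identity, differed between the LTAD arrays in a direction that depended on the scale. Of the 18 kept of 29 measured, 5 were at least 2-fold higher in siControl than in untransfected LTAD and 0 lower, with a list median of 0.47, beside 5.54% and 4.32% of all kept genes. On the deposited scale 0 were higher and 7 lower, with a list median of -0.62, beside 0.588% and 43.4%. For PCDHB10 the siControl level was 8.06, against 6.01 with no transfection, and for PCDHB16 7.63 against 6.13. These differences were 0.90 and 0.33 as deposited, under 2-fold. PCDHB16 was also the 1 gene at 2-fold for LTAD against LNCaP, at 6.13 against 7.36, while PCDHB10 and PCDHB13 were higher in siControl LTAD than in LNCaP by 1.21 and 1.03. Deposited values put these 3 differences under 2-fold, at -0.91, 0.38 and 0.26. Genes of these clusters are near-identical copies in places, so their values are uncertain.

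Of the remaining cadherins, CDH26 resembled DSC3, at 5.56, 5.60 and 5.40 in siPSF, siControl and untransfected LTAD against 7.85 in LNCaP. Its LTAD levels are under 7.24. Both genes passed the filter only through the LNCaP array, so nothing is read from this likeness. CDH3, P-cadherin of basal cells, read 4.75 to 5.28 and was not kept. DCHS1, the Dachsous ligand of FAT4, read 5.89, 6.09, 6.19 and 5.86 in siPSF LTAD, siControl LTAD, untransfected LTAD and LNCaP, under 7.24 in each. All 6 kept genes of the FAT, Dachsous, CELSR and calsyntenin list, of 13 measured, were above 0 for LTAD against LNCaP. Their median was 0.83, beside 0.02 over all kept genes, and FAT4 was the 1 gene past 2-fold. FAT1 and FAT4 are among the 9 genes, and FAT4 passed the filter only through the untransfected LTAD array. Measured genes that the filter left out lay on both sides of 0. For siControl LTAD against LNCaP 5 of the 6 were above 0, with a median of 0.48 (-0.29 deposited), beside 0.05.

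**Figure D4:**
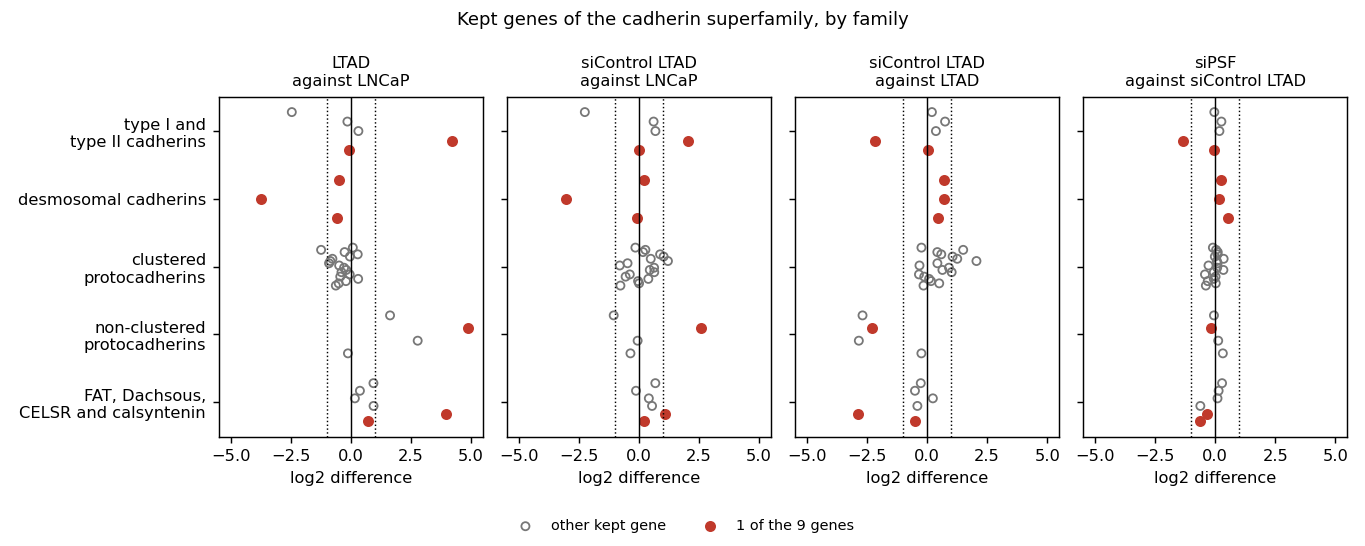
Log2 difference (x axis) of the 36 kept cadherin superfamily genes by family (rows) in the 4 comparisons (panels), filled points for the 9 genes and open points for the others, dotted lines at 2-fold. PCDH19 at 4.86 lies furthest right for LTAD against LNCaP, with PCDH9 of the same family at 2.79, where both PCDH9 levels are under 7.24. For siPSF against siControl LTAD CDH12 at -1.35, with both arrays under 7.24, is the 1 point past a line.

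Other junction and signalling genes were listed for context. Of 68 kept genes in the catenin, plaque, tight junction, transcription factor, cleavage and Hippo lists, 4 were at least 2-fold higher and 2 lower in LTAD than in LNCaP, or 5.88% and 2.94%, beside 2.27% and 3.42% of all kept genes. The 2 lower were CLDN8, a claudin of tight junctions, at 5.89 against 7.23, and MMP7, at 4.21 against 7.38. MMP7 is matrilysin, a protease able to cut E-cadherin. CLDN8 was under 7.24 in every array, and MMP7 was above it in LNCaP alone. CLDN8 and MMP7 passed the filter only through the LNCaP array, so nothing is read from the share of lower genes. Besides NECTIN3 and TWIST1, the 2 higher were Hippo pathway genes at the line itself, FRMD6 at 1.02 and TEAD1 at 1.01. FRMD6 read 6.80 in LTAD and 5.78 in LNCaP, both under 7.24. NECTIN3 and FRMD6 passed the filter only through the untransfected LTAD array, so nothing is read from the share of higher genes. Between siControl and untransfected LTAD, the Hippo kinase gene STK3 differed by -1.54 and MOB1A by 1.01, or 0.13 on the deposited scale for MOB1A. With siPSF 0 were higher and 1 (1.47%) lower than with siControl, beside 0.0634% and 0.661%. That gene was PKP4, a plakophilin-like junction protein, at 8.89 in siPSF LTAD, 9.98 in siControl LTAD, 8.91 in untransfected LTAD and 9.11 in LNCaP. Its siControl array was the one that stood out. EPCAM, an epithelial adhesion molecule, read 11.44, 11.49, 10.59 and 11.08 in the same order. In the tight junction list 1 of 12 kept genes was 2-fold lower in either LTAD array without the PSF siRNA than in LNCaP, CLDN8 each time. In the cleavage list it was MMP7 each time, 1 of 12. Nothing is read from these counts either, since CLDN8 and MMP7 were kept through the LNCaP array alone.

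The genes nearest in pattern to each kept member were found by the distance between log2 profiles over the 4 arrays, each centred on its own mean. For PCDH19 these were ADGRL3, DOK6 and DACH1, at distances of 0.54, 0.87 and 1.09. For CDH12 they were DACH1, DOK6 and FIGN, from 0.55 to 0.76, and for FAT4 DACH1, A1CF and CLCA2, from 0.31 to 0.54. DACH1 was thus shared by all 3, and it read 5.26 in siPSF LTAD, 5.86 in siControl LTAD, 8.46 in untransfected LTAD and 4.33 in LNCaP. Only its untransfected LTAD level is above 7.24. PCDH19, CDH12 and FAT4 were selected for a high reading in that array, so nothing is read from the shared gene. DSC3 lay nearest to COLCA1, CP and TNFSF10, at 0.52, 0.52 and 0.53. The flatter members had many near genes, 6677 within 0.5 of CDH1 (nearest STOML2, IRF2BP1 and PMPCA), 2102 of DSG2 (APLN, RBM14 and CEP57), 1098 of DSC2 (MAP3K8, ENSA and LARGE2) and 448 of FAT1 (HIPK2, ATXN7L1 and IMMP2L). With 4 arrays, likeness of pattern is a description.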

How the data were processed

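Per the submitters' processing notes, the authors ran RMA within Affymetrix Expression Console, and the deposited table holds its log2 level of each probe set, with versions and settings unstated. The 4 deposited columns had medians of 6.04 (siPSF LTAD), 5.98 (siControl LTAD), 7.20 (untransfected LTAD) and 6.91 (LNCaP), so the transfected arrays lay apart from the others. The sources used here do not say whether the pairs were normalized separately. All 4 were quantile-normalized together (Python 3.11.15, NumPy 2.4.6, pandas 2.3.3), with the deposited scale as an alternative. Groups came from the array titles.

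Names came from GEO's platform annotation, with symbols updated by Entrez ID to RefSeq GRCh38.p14 (19429 of 19460 single-symbol probe sets matched), and the probe set with the highest mean stood for a gene. Probe sets with several symbols (1754) or none (12083) named no gene. Kept were 11049 of 18417 genes. No build is stated for the arrays, so gene spans and order are RefSeq's. Differences were taken on the log2 scale and counted at 2-fold. The computation was checked on simulated data. Other genes named are 13 named whatever their values (CTNND1 among them is not analysed here), up to 2 per list, direction and comparison at 2-fold, the 3 nearest in pattern, and a few examples picked with values in view. The members and the 15 gene lists were chosen with earlier results of these data known.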

Additional observations from a re-analysis of the deposited data

How the results depend on the processing

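No paired analysis was possible because each group held 1 array, and for the same reason no array could be left out of a group. Of the 9 genes, 4 were 2-fold apart for LTAD against LNCaP and 4 for siControl LTAD against LNCaP, and 2 and 2 with a filter at the 75th percentile of all gene values (8.86), which leaves fewer genes to count. The calls lost were FAT4, whose highest deposited value was 8.84, and DSC3 at 7.90, the 1 gene called lower. For siPSF the count was 1 against siControl LTAD and 4 against untransfected LTAD. Over all lists, with 116 kept genes, the counts were 16, 14, 17 and 2 in the 4 comparisons in the order given. The shares over all kept genes were 5.69%, 5.23%, 9.86% and 0.724%. The 8 kept members are in these lists and supplied 4, 4, 3 and 1 of the counts. The 75th percentile filter, which left 65 list genes, gave 6, 4 and 9 for all but siPSF. The deposited values gave 38 with LNCaP as the base of siControl LTAD and 70 with untransfected LTAD as its base, where the whole column is shifted, with 0.471% of kept genes higher and 24.6% lower in the first and 0.588% and 43.4% in the second. With untransfected LTAD as control the siPSF count over the lists was 19, with 8 higher and 11 lower. Of all kept genes 4.62% were higher and 5.24% lower in that comparison. The members supplied 4 of the 19, among them PCDH19, CDH12 and FAT4, selected for a high reading in the array subtracted. Of 36 differences of single members, 33 stayed on the same side of 2-fold on the deposited scale, 35 after centring each column on its median and 36 with all probe sets averaged. The exceptions were FAT4 for siControl LTAD against LNCaP (0.14 deposited), CDH2 and FAT1 for siControl against untransfected LTAD (-1.58 and -1.50 deposited) and DSG2 in that comparison (1.11 centred). No called difference of a member changed sign in these alternatives. Signal over background is unknown without detection calls, and 17 of the 36 member levels were under 7.24.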

Other observations

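Some cadherin genes left out by the filter differed between arrays at levels under 7.24, and they are given as values chosen after they were seen. PCDH15, a protocadherin of inner ear hair cells, read 3.61 in siPSF LTAD, 3.96 in siControl LTAD, 5.81 in untransfected LTAD and 3.64 in LNCaP. CDH18, a type II cadherin, read 3.50, 3.68, 5.55 and 4.44 in that order. CDH7 was highest in siControl LTAD, at 5.96, 6.75, 5.19 and 4.38. Outside the cadherins, and also chosen after its values were seen, TCF4, a basic helix-loop-helix factor gene, read 7.09 and 7.26 in siPSF and siControl LTAD, against 4.53 in untransfected LTAD and 5.26 in LNCaP.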
